A study of Mus musculus with 24 samples.

Results

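Binding of CTCF and of the cohesin subunit Rad21 was examined at 8 mouse genes of the pre-B cell receptor: Igll1, Vpreb1, Cd79a, Cd79b, Lyn, Blk, Syk and Blnk. The genes were chosen for their known role as components of this receptor or of its first signalling step, not by a measured value. They are 8 of 21646 protein-coding genes on the mouse chromosomes used, which are 1 to 11, 13 to 19 and X. Each gene body with 20 kb on both sides formed a window. The Igll1 and Vpreb1 windows overlap on chromosome 16 and hold the same sites, so the 8 genes give 7 separate windows, 609 kb in all. Syk is annotated under its older symbol Sykb.

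The 24 samples are ChIP-seq libraries (sequenced DNA recovered with an antibody from crosslinked chromatin) made from pro-B lines transformed by the v-Abl kinase. A peak list was used for 16 of them, and the 8 inputs were not used here. Every line was RAG2 deficient and carried an Emu-Bcl2 transgene, and all cells were kept for 4 days in 3 µM STI-571, an Abl kinase inhibitor. Parental cells without IAA were the controls for CTCF ChIP (3 lists) and for Rad21 ChIP (3 lists). CTCFdegron cells, in which CTCF carries a tag that leads to its breakdown when the auxin IAA is present, received 500 µM IAA for 6 h and then IAA together with STI-571, and gave 3 CTCF and 3 Rad21 lists. Rad21degron cells gave 2 Rad21 lists without IAA and 2 with the same IAA treatment. No label gives the number of clones behind a line or says that replicates were separate cultures, so the spread between lists may be technical. In the CTCFdegron comparisons the line and the IAA treatment change together and cannot be told apart. The IAA-treated CTCFdegron and Rad21degron cells are called CTCF-depleted and Rad21-depleted below, although protein levels were not measured here. Replicate 1 of the parental and of the CTCFdegron Rad21 lists had no spike-in of human HCT116 cells, whereas the other Rad21 lists had one. Peak lists hold no expression values, so the pro-B identity of the lines was not checked here.

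The pre-B receptor is the signalling checkpoint that a developing B cell passes once it has made an immunoglobulin heavy chain. Because no light chain exists yet, the heavy chain pairs with a surrogate light chain built from the Vpreb1 and Igll1 (lambda5) proteins, and the complex signals through the Cd79a and Cd79b chains. Src-family kinases such as Lyn and Blk phosphorylate the Cd79 tails, Syk docks on them, and Syk phosphorylates the adaptor Blnk, which gathers downstream enzymes. Cells without RAG2 cannot rearrange their heavy-chain gene segments, so these lines sit before that checkpoint. CTCF binds DNA through zinc fingers at an oriented motif, and the cohesin ring, of which Rad21 is a part, accumulates at CTCF sites and also at active promoters.

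Peaks of any of the 16 lists that overlapped by at least 1 bp were merged into sites. A site was called complete when every library of a control group had a peak there. It was called promoter when it lay within 1000 bp of any annotated transcript start, and distal otherwise. A control site was counted as kept, partly kept or lost when all, some or none of the IAA-treated lists had a peak there. A peak anywhere in the merged site counted, so a peak that was left need not overlap the strongest control peak. The value given for a peak is the authors' fold enrichment of that peak in its own list, in which the lowest value of any peak was between 3.26 and 4.43 across the 16 lists. The strongest site of a locus means the one with the highest mean percentile rank of enrichment over the control lists of both proteins that hold it.

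In the 7 windows there were 125 sites, of 85817 in all. Of the 125, 51 were in only 1 list, and 36 of those were in parental Rad21 replicate 1 alone. The results below rest on the 53 complete sites, 19 promoter and 34 distal. By annotation, 19 of the 53 overlapped an exon, 11 lay inside a gene without touching an exon, and 23 lay outside genes. CTCF was present in all 3 parental lists at 40 of the 53 sites (75.5%), against 84.8% of 37663 complete sites genome-wide. Only 1 of the 53, an intronic site of Lyn, had no CTCF peak in any parental list.

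The sequences that carry the CTCF signal are shown first. A core CTCF motif, CCANNAGNNGGC searched on both strands, was in 16 of the 40 CTCF sites of the members (40%), and in 44.4% of 31927 CTCF sites genome-wide. Stretches of equal length 5000 bp away from those genome-wide sites held it in 8.67%, and such stretches beside the member sites in 15%. Other CTCF sites were not left out of these stretches. Of the 16 sites, 9 had the motif on the plus strand only and 7 on the minus strand only. For each locus the CTCF site with the highest mean percentile rank, among those that hold a match, is given as 60 bases of mm9, 5′ to 3′ on the strand of the motif, with the motif in capitals.

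Igll1 and Vpreb1, chr16:16855118-16855177, plus strand: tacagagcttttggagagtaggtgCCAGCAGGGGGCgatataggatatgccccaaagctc
Cd79a, chr7:25675623-25675682, plus strand: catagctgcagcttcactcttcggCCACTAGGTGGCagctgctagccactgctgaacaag
Cd79b, chr11:106163881-106163940, minus strand: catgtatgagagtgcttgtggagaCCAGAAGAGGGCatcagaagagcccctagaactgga
Blnk, chr19:41037572-41037631, plus strand: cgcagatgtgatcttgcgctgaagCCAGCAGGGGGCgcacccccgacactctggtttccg
Syk, chr13:52719587-52719646, minus strand: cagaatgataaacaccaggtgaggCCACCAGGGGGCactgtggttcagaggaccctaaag
Lyn, chr4:3707700-3707759, minus strand: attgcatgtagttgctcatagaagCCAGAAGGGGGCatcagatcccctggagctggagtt
Blk, chr14:63991499-63991558, minus strand: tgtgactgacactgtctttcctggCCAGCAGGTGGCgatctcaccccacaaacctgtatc

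At Igll1 and Vpreb1, Cd79a and Syk this was the first CTCF site of the locus in that ranking, and at Cd79b, Blnk, Lyn and Blk the second, since the first there holds no match to these letters. The ranking includes Rad21, so at Cd79b, Syk and Blk another site with a match had higher parental CTCF enrichment than the one shown. The letters of the core were identical at the Igll1 and Vpreb1 site and at the Blnk site.

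Promoters are shown because Rad21 peaks lay over them. RefSeq gives a promoter for 5 of the 8 members (Igll1, Vpreb1, Cd79a, Blnk, and Syk with 2 starts), from GRCm38.p6, and each of the 6 matched mm9 exactly once. The 250 bases before the RefSeq start are given for the surrogate light-chain genes, for Cd79a and for Blnk, on the strand of the gene. Capitals mark the E-box CAGGTG, a sequence bound by E2A, and the motif CCCNNGGG bound by EBF1, each on either strand.

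Igll1, chr16:16864079-16864328, minus strand: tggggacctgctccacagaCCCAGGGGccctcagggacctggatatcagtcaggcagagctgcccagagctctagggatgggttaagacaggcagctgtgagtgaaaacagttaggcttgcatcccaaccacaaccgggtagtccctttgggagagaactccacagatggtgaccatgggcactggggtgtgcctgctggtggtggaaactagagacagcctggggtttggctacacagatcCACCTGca
Vpreb1, chr16:16869349-16869598, minus strand: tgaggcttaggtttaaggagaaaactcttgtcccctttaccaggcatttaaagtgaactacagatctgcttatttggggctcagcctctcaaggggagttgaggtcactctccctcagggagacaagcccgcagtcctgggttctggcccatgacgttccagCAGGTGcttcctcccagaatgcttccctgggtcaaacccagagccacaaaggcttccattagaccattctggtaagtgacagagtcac
Cd79a, chr7:25682266-25682515, plus strand: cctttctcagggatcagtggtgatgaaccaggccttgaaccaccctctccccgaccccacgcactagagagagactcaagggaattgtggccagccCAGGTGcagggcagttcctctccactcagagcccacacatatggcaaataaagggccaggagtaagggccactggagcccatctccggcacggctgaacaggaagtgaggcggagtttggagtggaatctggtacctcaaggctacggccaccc
Blnk, chr19:41068712-41068961, minus strand: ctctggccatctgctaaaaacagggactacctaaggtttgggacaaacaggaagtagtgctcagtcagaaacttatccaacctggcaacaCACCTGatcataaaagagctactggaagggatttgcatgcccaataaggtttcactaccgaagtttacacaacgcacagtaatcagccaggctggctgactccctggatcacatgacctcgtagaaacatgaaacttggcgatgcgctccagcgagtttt

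All 6 member promoters of 300 bases, from 250 before to 50 after the start, held the E-box, which 20.3% of 32544 RefSeq promoters of that length hold. The E-box began 8 bases before the start of Igll1, 88 before Vpreb1, 154 before Cd79a and 160 before Blnk. The EBF1 motif was in the Igll1 promoter alone among the 6, 231 bases before the start, and in 13.7% of all promoters. A core CTCF match was also in the Igll1 promoter alone, against 2.44% of all, and is not marked. These matches describe letters, and binding of E2A or EBF1 was not measured.

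**Figure D1:**
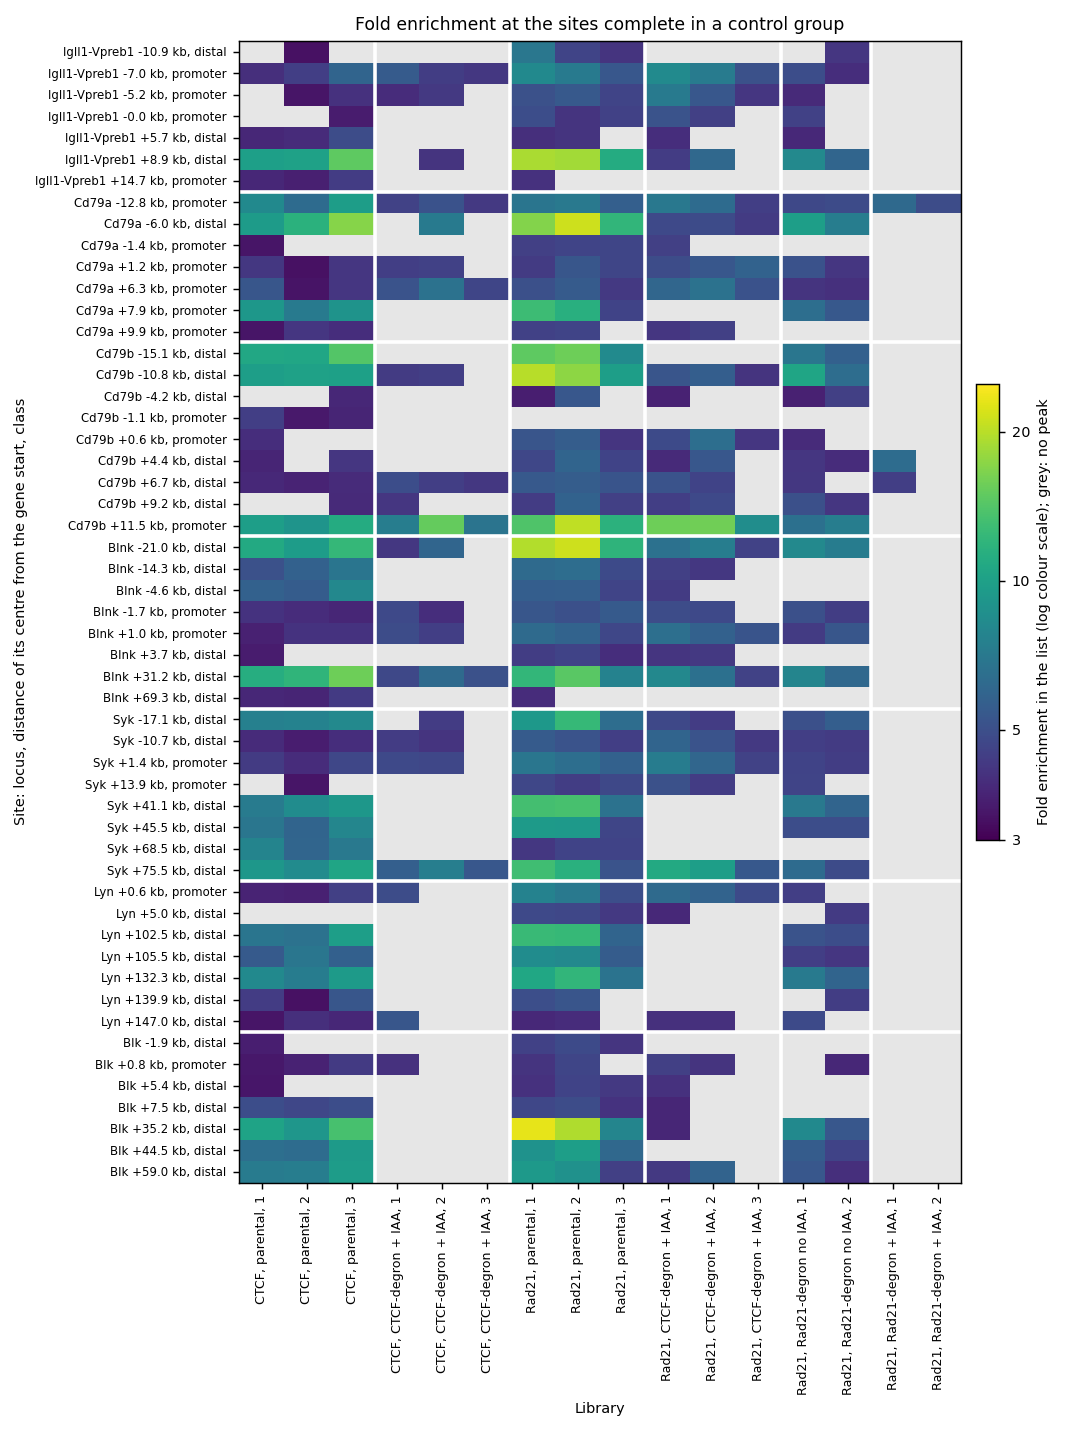
Fold enrichment (authors' value, log colour scale) at the 53 complete sites (rows, ordered by locus and by distance of the site's centre from the gene start in kb) in the 16 lists (columns); grey means no peak. The strongest rows are mostly distal sites with CTCF and Rad21 (12 of 14 at a mean percentile rank of at least 75, where 34 of the 53 are distal). Both IAA-treated Rad21degron columns are grey except at 3 sites near Cd79a and Cd79b.

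Genes of the surrogate light chain had 7 complete sites, 4 of them with CTCF in all parental lists. The strongest was intergenic, 8.9 kb downstream of the Igll1 start at chr16:16854529-16855778, and it contains the 60-base stretch shown for this locus. CTCF enrichment there was 9.91, 10.1 and 14.8 in parental replicates 1, 2 and 3, and Rad21 enrichment was 19.1, 18.7 and 11.1. In the CTCFdegron lists a CTCF peak remained in replicate 2 alone, at 4.12, and Rad21 peaks in replicates 1 and 2, at 4.38 and 6.13. The Rad21degron lists had it at 8.14 and 5.98 without IAA and had no peak with IAA.

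Both genes also had weaker promoter sites, with a different pattern. At the Igll1 promoter (chr16:16863493-16864726, over its start) Rad21 was at 4.96, 4.12 and 4.53 in the parental lists, and at 5.17 and 4.47 in CTCFdegron replicates 1 and 2. CTCF was there in parental replicate 3 alone, at 3.54, the lowest value in that list. A Rad21 peak thus lay at this site in 5 of 6 lists of this comparison and a CTCF peak in 1 of 6. A second promoter site, 771 bp from the Igll1 start (chr16:16864849-16865937), was not complete. CTCF was there in all 3 CTCFdegron lists, at 5.19, 4.13 and 4.17, and in parental replicate 3, at 3.7. Rad21 was there in replicates 1 and 2 of both lines, at 4.22 and 4.49 in parental and 5.13 and 4.41 in CTCFdegron cells.

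Vpreb1 had a site over its gene body and RefSeq start (chr16:16868485-16870080) and another at a farther start that faces the start of Top3b, a DNA topoisomerase gene (chr16:16870274-16871924). Over the gene body Rad21 was at 5.08, 5.41 and 4.64 in parental lists and at 7.13, 5.34 and 4.19 in CTCFdegron lists. At the shared start Rad21 was at 8.18, 7.16 and 5.34 and at 8.26, 7.26 and 5.07. Rad21 was thus kept in all 3 CTCFdegron lists at both sites. CTCF at the shared start was in all 6 CTCF lists, at 3.99, 4.45 and 5.95 in parental and 5.5, 4.42 and 4.23 in CTCFdegron cells. Only 68.2% of the 31-base words of the gene-body site occur once in mm9, so reads from near-identical sequence such as the paralog Vpreb2 may be split there.

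The signalling chain genes Cd79a and Cd79b had 7 and 9 complete sites. At Cd79a the strongest lay 6.0 kb upstream, between Rps19 and Cd79a (chr7:25674981-25677912, outside genes). Parental CTCF enrichment was 9.57, 11.6 and 17.0 and parental Rad21 enrichment 16.9, 21.3 and 12.1. After CTCF depletion, CTCF was left in replicate 2 at 7.16, while Rad21 was left in all 3 lists, at 4.80, 4.86 and 4.33. This was a site where Rad21 peaks remained although 2 of 3 lists had no CTCF peak.

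Over the Cd79a start and first exons (chr7:25681894-25685389), Rad21 was kept in all 3 CTCFdegron lists, at 4.93, 5.32 and 5.86, against 4.35, 5.30 and 4.69 in parental lists. CTCF was weak there, at 4.24, 3.31 and 4.20 in parental lists, with 2 of 3 CTCFdegron lists still showing a peak. The neighbouring promoters of Rps19, a ribosomal protein gene (chr7:25668616-25670543), and Arhgef1 (chr7:25687488-25689849), kept CTCF and Rad21 in all 6 CTCFdegron lists. Within Arhgef1, 7.9 kb from the Cd79a start (chr7:25690058-25690568, intronic), the opposite was seen. By the rule used here this site was also classed as promoter, since an annotated Arhgef1 start lies 632 bp away. CTCF at 9.20, 7.16 and 8.94 and Rad21 at 12.8, 11.4 and 4.59 in parental lists left no peak in any CTCFdegron list.

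Cd79b lies between Scn4a, a sodium channel gene, and Gh, the growth hormone gene. Its 3 strong sites differed in what remained. The site 11.5 kb downstream of the Cd79b start, 400 bp from the Gh start (chr11:106163579-106165552), kept both proteins. CTCF was at 9.86, 8.99 and 11.1 in parental and 7.39, 15.1 and 6.78 in CTCFdegron lists, and Rad21 at 14, 20.4 and 11.7 and at 15.7, 15.8 and 8.48.

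On the other side, at an exon of Scn4a 15.1 kb upstream of Cd79b (chr11:106190538-106191792), CTCF was at 10.7, 10.5 and 14.2 and Rad21 at 14.8, 15.7 and 8.29 in parental lists. No CTCFdegron list had either peak there. At a nearer Scn4a exon, 10.8 kb upstream (chr11:106185865-106187898), the merged site had a CTCF peak in 2 of 3 lists and Rad21 in 3 of 3. Those CTCF peaks, at 4.32 and 4.45, did not overlap the strongest peaks of parental replicates 1 and 2, at 9.85 and 10.1. They lay within a weaker peak of parental replicate 2, at 3.42, that merging joined to the same site. In parental replicate 3 a single peak, at 9.99, spanned both positions. The Cd79b promoter itself (chr11:106174629-106176283, over its start) had Rad21 in all 6 lists, at 5.24, 5.60 and 4.16 in parental and 4.82, 6.46 and 4.20 in CTCFdegron cells. CTCF was listed there in parental replicate 1 alone, at 3.97.

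**Figure D2:**
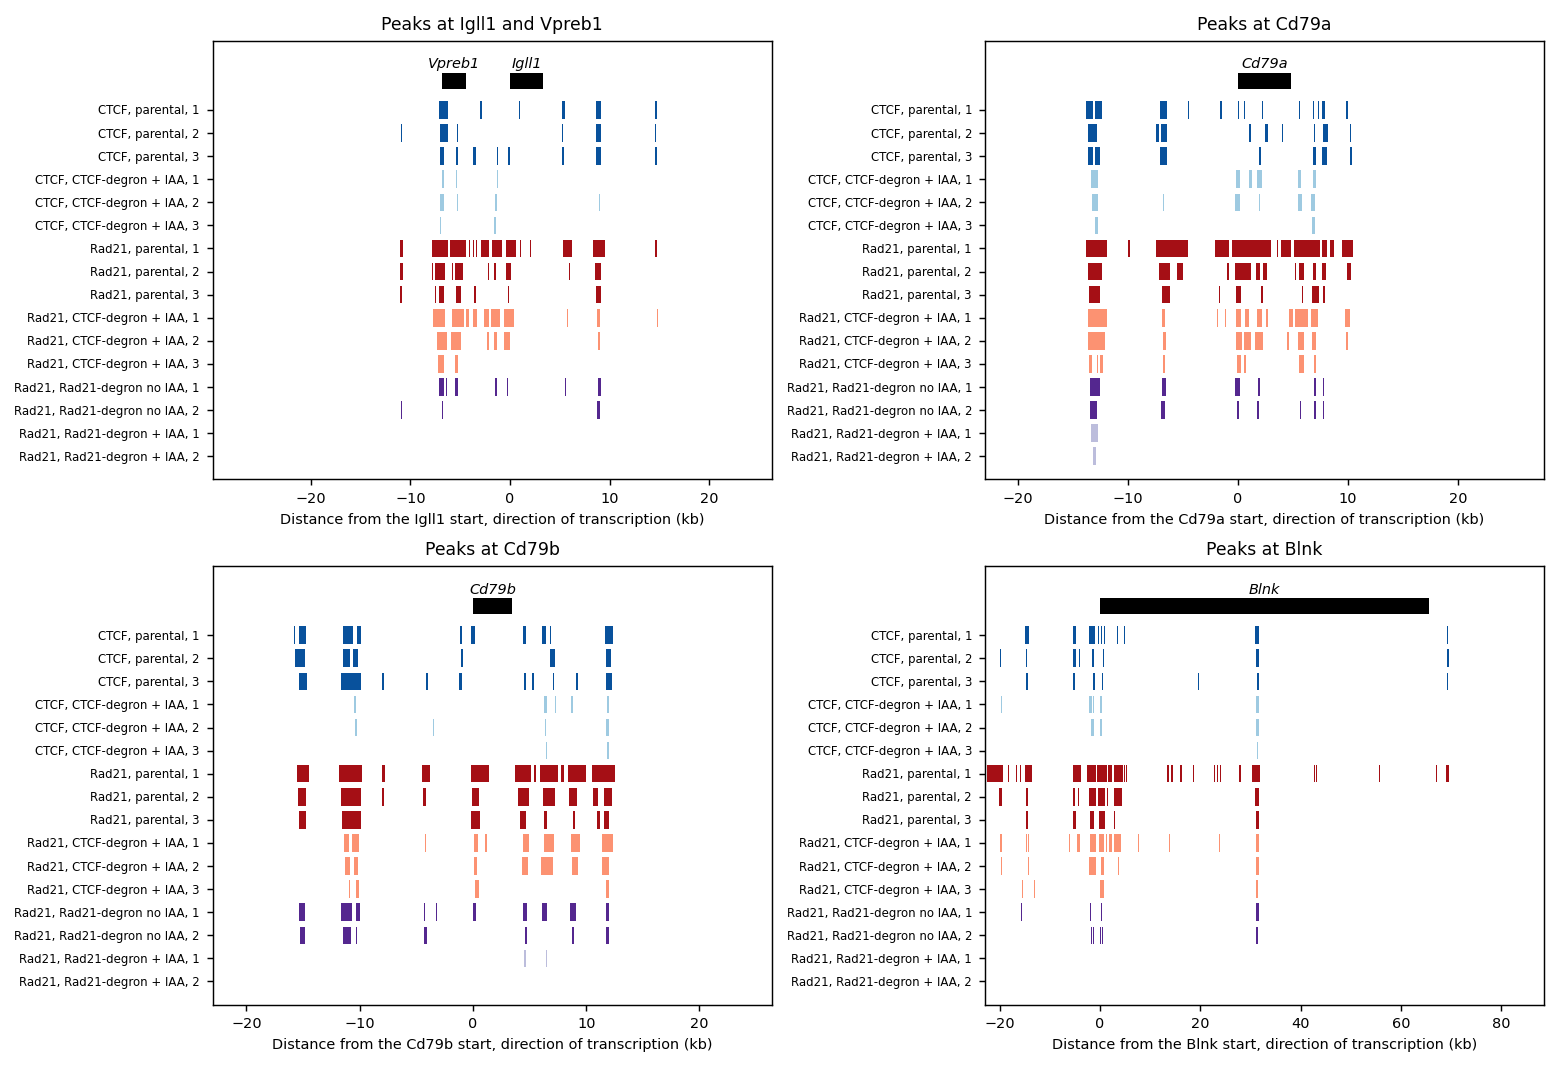
Peaks of each list as bars along the windows of Igll1 and Vpreb1, Cd79a, Cd79b and Blnk; the horizontal axis is distance from the gene start in kb in the direction of transcription, rows are the 16 lists coloured by group, and black bars are gene bodies. Peaks over the gene starts recur in the CTCFdegron Rad21 rows, and the IAA-treated Rad21degron rows hold 3 peaks in replicate 1 and 1 in replicate 2.

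For the Src-family kinases the sites were mainly intronic or downstream. Lyn, the kinase with both activating and inhibitory roles in B cells, had 3 distal sites far inside its gene body whose CTCF and Rad21 peaks were all absent after CTCF depletion. At chr4:3737141-3737933, 132.3 kb into the gene and intronic, CTCF was at 8.23, 7.33 and 9.55 and Rad21 at 10.6, 12.1 and 6.72 in parental lists. At chr4:3707345-3708154, which overlaps an exon of Lyn, CTCF was at 6.86, 6.67 and 9.81 and Rad21 at 12.6, 12.4 and 5.92. Both sites hold repeated sequence: 71.6% and 77.6% of their 31-base words occur once in mm9. The Lyn promoter (chr4:3604626-3607025) was the only site of this window that kept Rad21 in all 3 CTCFdegron lists, with Rad21 at 7.65, 7.07 and 5.00 in parental and 6.25, 5.87 and 4.85 in CTCFdegron lists. CTCF at the Lyn promoter was at 3.72, 3.64 and 4.50, with a peak in CTCFdegron replicate 1 alone, at 4.93.

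Blk, a kinase expressed mainly in the B lineage, had its strongest site in an intron 35.2 kb from its start (chr14:64000320-64001293). CTCF was at 10.3, 9.17 and 13.5 and Rad21 at 23.2, 19.4 and 7.88 in parental lists, and after CTCF depletion only 1 Rad21 peak was left, at 3.78 in replicate 1. No Blk site with Rad21 in every parental list was kept in all 3 CTCFdegron lists. An intronic site (chr14:63995914-63996563) had Rad21 in all 3 CTCFdegron lists, at 6.13, 4.4 and 4.26. It lacked a Rad21 peak in parental replicate 3, so it was not counted. The Blk promoter (chr14:64034094-64036286) was weak in every list, with Rad21 at 4.13 and 4.69 in parental replicates 1 and 2 and no peak in replicate 3. In CTCFdegron replicates 1 and 2 Rad21 was at 4.49 and 4.11. CTCF was at 3.43, 3.68 and 4.3 in parental lists and at 4.05 in CTCFdegron replicate 1 alone.

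Syk, the kinase that docks on the phosphorylated Cd79 chains, had 8 complete sites, all with Rad21 in every parental list. A site at an exon 41.1 kb from its start (chr13:52719042-52720255), from which the Syk sequence above was taken, had CTCF at 7.24, 8.42 and 9.22 and Rad21 at 13.3, 13.5 and 6.69, and had neither peak after CTCF depletion. Downstream of the gene, 75.5 kb from the start (chr13:52753693-52754422), CTCF was kept at 5.70, 7.44 and 5.33 and Rad21 at 10.9, 9.84 and 5.37. The 2 sites had similar parental enrichment and opposite outcomes. At the Syk promoter (chr13:52677545-52682258) Rad21 was at 6.88, 6.45 and 5.79 in parental and 7.30, 6.04 and 4.57 in CTCFdegron lists.

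Blnk, the adaptor that Syk phosphorylates, had 37 sites, 23 of them in 1 list only and 18 of those in parental Rad21 replicate 1. Of its 8 complete sites, an intronic site 31.2 kb from the start (chr19:41037051-41038658), which holds 2 core motifs, kept both proteins. CTCF was at 11.2, 12 and 15.6 in parental and 4.74, 6.25 and 5.09 in CTCFdegron lists, and Rad21 at 12.2, 14.5 and 7.69 and at 8.06, 6.56 and 4.54. The strongest site lay 21 kb upstream of Blnk (chr19:41088363-41091662, outside genes), 12103 bp from the nearest annotated start, that of Dntt, the terminal transferase gene. CTCF was at 10.9, 9.69 and 12.3 and Rad21 at 19.5, 21.3 and 11.9 in parental lists. CTCF peaks remained in 2 of 3 CTCFdegron lists and Rad21 peaks in 3 of 3. The Blnk promoter (chr19:41066547-41069597) kept Rad21 in all 3, at 6.49, 5.78 and 5.19, against 6.24, 5.90 and 4.71.

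Across the 8 genes, 13 complete sites lay at the members' own promoters. Rad21 was in every parental list at 11 of them, and 7 of the 11 kept it in all 3 CTCFdegron lists, 4 in 1 or 2 lists and 0 in none. Over all mouse sites, 61.8% of 6252 promoter Rad21 sites were kept in all 3, so the member share is near the background. The 7 kept sites belong to 6 of the 8 genes, Igll1 and Blk being the 2 without one. The Blk promoter was not among the 11, because parental replicate 3 had no Rad21 peak there. CTCF was in every parental list at 6 of the 11. Promoter sites of the members were wide and weak for CTCF: the median width was 1951 bp and the median of the mean parental enrichment 3.95 (n = 14 CTCF sites). Distal sites had a median width of 1096.5 bp and a median enrichment of 7.62 (n = 26). Over all mouse CTCF sites the median widths were 1110 bp at promoters and 695 bp at distal sites, and the median enrichments 5.98 and 6.44. Member sites were thus wider than the background in both classes, and the part of width in the shares of sites kept or lost was not tested. Of the member promoter CTCF sites 3 of 14 held the core motif (21.4%) and of the distal sites 13 of 26 (50%), against 32.0% and 47.7% over all. Same-length stretches 5000 bp from the member promoter sites also held it in 21.4%. Other CTCF sites were not left out of these stretches. The stretch beside the Blnk promoter site chr19:41066547-41069597 holds the motif of another CTCF site, chr19:41072826-41074452. These shares therefore cannot tell whether the promoter sites hold the motif more often than sequence without CTCF.

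A ranking by enrichment is given as a description only. A cut chosen after the values were seen, a mean percentile rank of at least 75 in the control lists, takes 14 sites, 12 distal. Of all 53 complete sites 34 were distal, and over all mouse sites 28961 of 37663. All 14 had CTCF in every parental list and Rad21 in all 5 control Rad21 lists. The rank is computed from these same lists, so their peaks at the 14 sites are no separate support. The cut was not applied to all mouse sites.

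Most CTCF sites of the member genes had fewer or no peaks in the CTCF-depleted lists. Of 40 CTCF sites, 7 were kept, 13 partly kept and 20 lost, so 50% were lost, where the background over all mouse CTCF sites was 69.8%. At promoters 4 of 14 were lost (28.6%, background 43.6%), and at distal sites 16 of 26 (61.5%, background 76.8%). A peak was left at 42.5%, 42.5% and 17.5% of the 40 sites in CTCFdegron replicates 1, 2 and 3 (34.2% ± 14.4, SD, n = 3), against 21.8% ± 6.34 (n = 3) over all sites. Replicate 3, which also had the shortest CTCF list, was the lowest of the 3. The share of members left is above that of all sites in each replicate, by 2.51 to 19.7 percentage points. The member share itself moved with the rule for a site. Counting only peaks that cover at least 50% of a merged site leaves 7 control sites and 4.76% with a peak. At a q-value of 0.001 or less the share is 15.9% of 23 sites. The share over all mouse sites was not recomputed under these rules, so whether the difference from it holds was not tested.

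Rad21 sites were lost in a smaller share than CTCF sites in the CTCF-depleted cells, a difference between overlapping sets of sites that was not tested. Of 44 Rad21 sites with a peak in every parental list, 16 were kept, 17 partly kept and 11 lost, which is 25% lost where the background was 41.4%. At promoters 1 of 15 was lost (6.67%, background 16.5%), and 10 of the 15 were kept in all 3 lists (66.7%, 61.8% over all). At distal sites 10 of 29 were lost (34.5%, background 50.3%), and 6 were kept in all 3 (20.7%, below the 26.5% over all). A Rad21 peak was left at 75%, 61.4% and 36.4% of the sites (57.6% ± 19.6, SD, n = 3), against 48.6% ± 10.9 over all mouse sites. Both shares come from the same lists, and the members stood above all sites by 18.1, 8.7 and 0.117 percentage points in replicates 1, 2 and 3. In replicate 3 the members were thus at 36.4% against 36.2%. This difference was not tested. In the lists with the HCT116 spike-in alone the mean was 48.9%. With peaks required to cover at least 50% of a site, 23.8% of 7 sites had one. Neither value was recomputed over all mouse sites.

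Most sites that kept CTCF also kept Rad21. Where CTCF was left in all 3 CTCFdegron lists, 6 of 7 member Rad21 sites were kept and 0 lost. Where it was left in 1 or 2 lists, 8 of 11 were kept and 0 lost. Where it was left in none, 0 of 14 were kept, 5 partly kept and 9 lost. The same order held over all mouse sites, with 93.5% of 3155 and 65.6% of 4237 sites kept in the first 2 classes and 76.4% of 12153 lost in the last. The classes are read from lists of the same cells, so this is a description with no test. A further 12 member Rad21 sites lacked a CTCF peak in at least 1 parental list, and of those 2 of 5 at promoters and 0 of 7 at distal positions were kept in all 3 lists. Over all mouse sites of these classes 69.3% of 1647 and 40.4% of 2631 were kept.

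**Figure D3:**
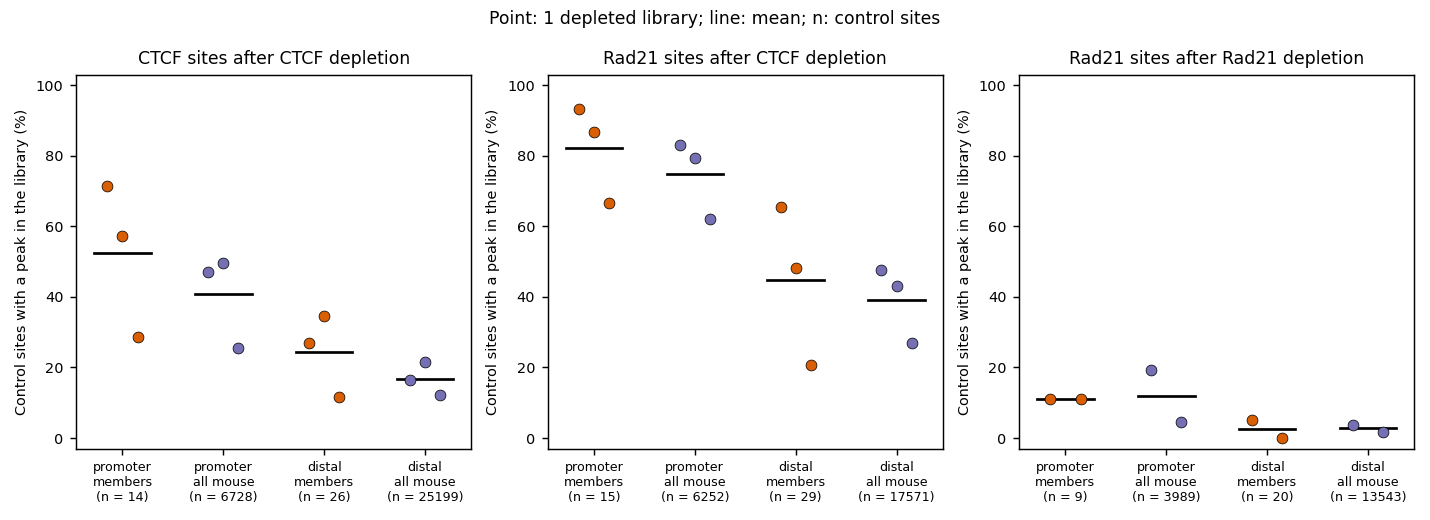
Percent of control sites with a peak in each IAA-treated list, for promoter and distal sites of the members (orange) and of all mouse sites (purple), in the 3 comparisons; points are lists, lines are means, and n is the number of control sites. After CTCF depletion, promoter sites of the members stand above distal ones in each list for both proteins, as they do over all mouse sites; after Rad21 depletion all points lie under 20%.

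Nearly all Rad21 peaks at these genes were absent from the Rad21-depleted lists. Of 29 sites present in both Rad21degron lists without IAA, 27 had no peak with IAA, 1 was kept in both lists and 1 in 1 list, so 93.1% were lost where the background was 92.4%. At promoters 8 of 9 were lost (88.9%, background 79.5%), and at distal sites 19 of 20 (95%, background 96.2%). A peak was left at 6.90% and 3.45% of the sites (5.17% ± 2.44, SD, n = 2), against 4.80% ± 3.39 over all. The site kept in both lists was the Rps19 promoter beside Cd79a, with Rad21 at 4.75 and 4.89 without IAA and 6.19 and 4.92 with IAA. Of the 13 own-promoter sites, 5 had Rad21 in both lists without IAA, and these 5 had no peak in either list with IAA. Another 2 sites downstream of Cd79b (chr11:106170962-106172390 and chr11:106168612-106170201, outside genes) had a peak in replicate 1 alone, at 6.34 and 4.43.

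No site of the member windows was gained in any comparison, where gained means a peak in every IAA-treated list and in no control list. Over all mouse sites 138, 149 and 134 were gained for CTCF after CTCF depletion, Rad21 after CTCF depletion and Rad21 after Rad21 depletion. These are 0.161%, 0.174% and 0.156% of 85817 sites, so a count of 0 among 125 member sites does not set them apart.

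The number of peaks in each window was then compared between libraries. For CTCF, all 8 genes had fewer peaks in every CTCFdegron list than in every parental list, where 71.7% of 17364 windows with peaks did so. Blk had 12, 6 and 7 peaks in parental and 2, 1 and 0 in CTCFdegron lists. Lyn had 9, 8 and 7 and then 3, 0 and 0, and Syk 13, 13 and 9 and then 4, 5 and 1. Those 3 kinase windows had the largest differences, with log2 changes of -2.22, -2.17 and -1.55 in group means of peaks + 1. The surrogate light-chain window had 6, 6 and 8 and then 3, 4 and 2 peaks (log2 change -0.94), and Cd79a 13, 9 and 7 and then 6, 6 and 2 (-0.91). The members' median log2 change was -1.21 and that of all windows -1.17. An exact two-sided permutation test of 3 against 3 lists cannot go below p = 0.1, which each member reached, and the Benjamini-Hochberg adjusted p over all windows was 0.139.

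For Rad21 after CTCF depletion, 2 of the 8 genes, Lyn and Syk, had fewer peaks in every CTCFdegron list, near the 21.9% of 17210 windows that did so. Lyn had 13, 8 and 5 peaks and then 4, 2 and 1 (log2 change -1.54), and Syk 16, 13 and 11 and then 9, 8 and 6 (-0.73). At the other 6 genes the groups overlapped. Cd79a had 11, 12 and 8 peaks in parental and 12, 9 and 8 in CTCFdegron lists (log2 change -0.09), a difference smaller than the spread of either group. Blnk had 32, 10 and 7 and then 18, 6 and 5 (-0.70). Without parental replicate 1, but with its same-numbered CTCFdegron list of 18 peaks still in, the Blnk change was 0.17. With same-numbered lists taken as pairs, every member but Cd79a had fewer peaks in the CTCFdegron list of each pair. How many of all windows did so was not counted. The smallest adjusted p among the members was 0.454 in this exact permutation test, which does not use the pairs.

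With Rad21 depletion all 8 genes had fewer peaks in both IAA lists than in both lists without IAA, where 72.0% of 14876 windows did so. The counts were 7 and 3 at Igll1 and Vpreb1, 7 and 5 at Blnk, 11 and 6 at Syk, 6 and 5 at Lyn and 4 and 4 at Blk without IAA, and 0 in all IAA lists of these windows. Cd79a had 6 and 7 and then 1 and 1, and Cd79b 10 and 7 and then 2 and 0. The members' median log2 change was -2.58, that of all windows -1.32. In a window with 0 peaks left, this value is set by the number of control peaks alone. The member windows were not matched to others for peak number, so neither comparison with all windows shows a stronger loss. Counted by site, 93.1% were lost at the members and 92.4% over all. The smallest p an exact permutation test of 2 against 2 lists allows is 0.33, and the adjusted p was 0.461.

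These counts moved with the length of the lists. CTCF lists held 46657 to 52357 mouse peaks in parental and 8215 to 15754 in CTCFdegron cells; Rad21 lists held 29724 to 67810 and 15690 to 35224, and in Rad21degron cells 22085 and 32913 without IAA and 1384 and 3588 with IAA. The 7 windows took 0.12% to 0.139% of the parental and 0.0974% to 0.181% of the CTCFdegron CTCF peaks. They took 0.164% to 0.175% of the parental and 0.158% to 0.199% of the CTCFdegron Rad21 peaks, and in Rad21degron cells 0.155% and 0.168% without IAA and 0.0836% and 0.0723% with IAA. For CTCF and for Rad21 after CTCF depletion these shares overlapped between the groups, and after Rad21 depletion they were lower in both lists with IAA. When each list of a comparison was shortened to its strongest peaks, as many as the shortest list holds, the direction of the windows' summed change turned. It went from -1.62 to 0.26 for CTCF, from -0.77 to 0.40 for Rad21 after CTCF depletion and from -3.91 to 0.32 for Rad21 after Rad21 depletion, on the log2 scale. In the last comparison each list was cut to 1384 peaks, and the lists with IAA held only 3 and 1 peaks in the windows before the cut. Its turned value therefore rests on very few peaks and depends on the pseudocount of 1. Depth is unknown for every library, since peak lists hold no read counts.

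**Figure D4:**
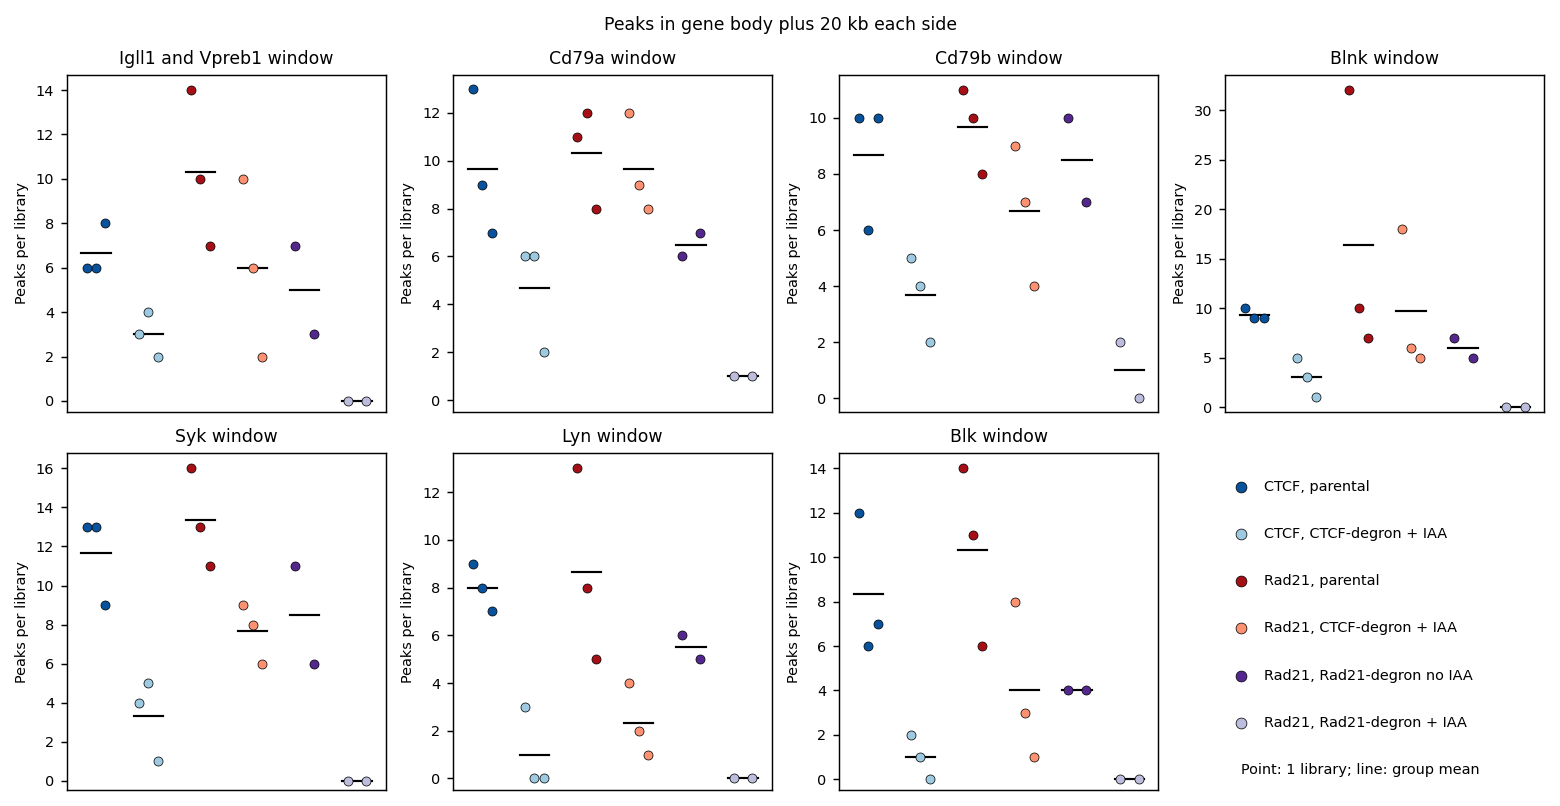
Peaks per library (vertical axis) in the window of each locus; points are lists, lines are group means, and colours are the 6 groups. CTCF points of parental and CTCFdegron lists do not overlap in any window, while Rad21 points of the same lines overlap in all but the Syk and Lyn windows.

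Other genes of the same pathway were counted in the same way. Of 25 further genes around the receptor, 22 had fewer CTCF peaks in every CTCFdegron list, 6 had fewer Rad21 peaks after CTCF depletion and 24 after Rad21 depletion, and none had more in every list. The shares of all windows with fewer peaks were 71.7%, 21.9% and 72.0%. Median log2 changes of the 25 genes were -1.44, -0.78 and -2.32, against -1.17, -0.58 and -1.32 over all windows. The windows were not matched for peak number. The Vpreb1 paralog Vpreb2 was 1 of 3 whose CTCF groups overlapped, with 5, 4 and 5 peaks in parental and 5, 5 and 1 in CTCFdegron lists, and Bank1, an adaptor gene, was another. Prkcb, a kinase gene downstream of Syk that is named here after its values were seen, had the largest CTCF difference in the list, with 14, 11 and 12 peaks and then 0, 1 and 0 (log2 change -3.32).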

How the data were processed

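ChIP-seq peak lists of 16 libraries were used. Per the submitters' processing notes, Bowtie2 2.2.8, SAMtools 1.8 and the builds mm9 and hg19 were used, and the alignment target was a mm9 hybrid genome, per the labels. Which program called peaks, at what threshold and with which inputs, is not given in the sources used here. Each deposited list gives per peak a fold enrichment (ratio), −log10 values of its p-value and q-value, and a score. There is 1 list per library. Only mouse chromosomes were used, without 12, Y and the mitochondrial one, and peaks on hg19 contigs were left out.

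Peaks were merged into sites, annotated with GENCODE vM1, and classed with Python 3.11.15, numpy 2.4.6 and pysam 0.24.0. Fold enrichment was not tested between groups. Window peak numbers were compared by exact two-sided permutation tests with Benjamini-Hochberg adjustment over all windows, using a pseudocount of 1 for log2 changes. Scripts were tested on simulated data. The core CTCF motif was picked among candidates on a genome-wide sample of CTCF sites. Named sites are the members' own promoters, sites that kept CTCF in all 3 CTCFdegron lists, and the strongest sites of each locus, up to 4 per gene; further sites the text names were added after their values were seen. Some genes of the pathway list are not reported by name here. Members, gene lists and tests were chosen with earlier results of these data known. Deviations of same-numbered lists correlated at 0.26, 0.12 and 0.17 in the Rad21 ChIP of parental and CTCFdegron cells, over gene windows. These lists were therefore also compared as pairs (replicate block), which turned the direction of no member window there. The reported tests and the calls of overlap between groups did not use the pairs. Alternatives changed the window, the promoter distance, the overlap, the peak threshold, the list length and the libraries.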

Additional observations from a re-analysis of the deposited data

How the results depend on the processing

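The percent of member sites left with a peak and the number of peaks in the windows were recomputed with other windows, thresholds, overlaps, list lengths and libraries. With lists shortened to the length of the shortest in their comparison, the log2 change in peaks over all windows turned from -3.91 to 0.32 (Rad21, Rad21 depletion), from -1.62 to 0.26 (CTCF) and from -0.77 to 0.40 (Rad21, CTCF depletion). Single windows turned too: Cd79a to 0.42 after Rad21 depletion; for CTCF Igll1 and Vpreb1 to 0.22, Cd79a to 0.46, Blnk to 0.42, Syk to 0.19 and Lyn to 0.58; for Rad21 after CTCF depletion Igll1 and Vpreb1 to 0.53, Cd79a to 1.26, Cd79b to 0.55, Blnk to 0.83 and Syk to 0.32. The shortening equalises list lengths by construction. For Rad21 depletion the lists with IAA held only 3 and 1 peaks in the windows even before it. The values 0.32 and 0.42 therefore rest on very few peaks and depend on the pseudocount. With a fold enrichment of at least 4, the CTCF change was -0.77.

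For the percent of sites left, a q-value of 0.001 or less gave 15.9% for CTCF, and peaks covering at least 50% of a site gave 4.76% for CTCF and 23.8% for Rad21 after CTCF depletion, with 7 control sites each; the cause was not tested. Windows with 10 kb on both sides gave 2.08% for Rad21 after Rad21 depletion. For that comparison the 50% coverage and the shortened lists left no control site, so no percent is given. Sites at least 90% single-copy, an alternative chosen after seeing the data, gave 40.9% for CTCF, 5.77% for Rad21 after Rad21 depletion and 58.8% for Rad21 after CTCF depletion.

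Leaving out 1 library at a time gave log2 changes of -4.49 to -3.49 (Rad21 depletion), -1.94 to -1.26 (CTCF) and -1.19 to -0.45 (Rad21, CTCF depletion), and percents left of 3.45 to 6.90, 30.0 to 42.5 and 48.9 to 68.2. For Rad21 after CTCF depletion the sign turned for Blnk (range -1.42 to 0.17, the highest without parental replicate 1) and for Cd79a (range -0.25 to 0.023, above 0 without parental replicate 2 or without CTCFdegron replicate 3). Each of these runs kept the same-numbered list of the other group, so the pairs were broken. With the replicate block the changes were -3.97, -1.77 and -0.80, with no change of direction. Same-numbered CTCF lists correlated at 0.13, -0.02 and 0.07, so those numbers were not taken as pairs. Promoter sites numbered 19 at 1000 bp, 15 at 500 bp and 22 at 2000 bp. Unknown depth, lists that stop at a fold of 3.26 to 4.43, and groups of 2 or 3 lists limit what can be told.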

Other observations

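Sites seen in a single list were unevenly spread. Of the 51 such sites in the member windows, 36 came from parental Rad21 replicate 1, the longest list, and 18 of these lay in the Blnk window. Over all mouse sites 12280 of 29547 single-list sites came from that library.

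The 53 complete sites were mostly unique in mm9: the median share of 31-base words found once was 99%, the lowest was 39.0% (chr4:3745040-3745310, downstream of Lyn), and 11 sites were under 90%. At the Cd79b promoter, a CTCF-only site (chr11:106176987-106177305) with 69.9% unique words had CTCF at 4.44, 3.48 and 3.75 in parental lists and no peak in any other list.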
